A study of Cucumis sativus with 25 samples.

Results

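miR166 is the csa-miR166 row of the cucumber shoot-tip small RNA table, 1 of 249 miRNAs counted there and 1 of 68 from known families; it was taken by its name alone, and its share of all miRNA counts, its spread between replicates and its response to temperature and photoperiod are described here. In land plants miR166 and its close relative miR165 guide ARGONAUTE proteins to the mRNAs of class III homeodomain-leucine zipper transcription factors, and cleavage of these mRNAs sets their level. In Arabidopsis these factors keep the shoot apical meristem active and specify the upper side of the leaf, miR166 restricts them to that side, and a dedicated ARGONAUTE in the meristem sequesters miR166. A miRNA precursor folds into a hairpin from which one arm, here the 3′ arm, gives most of the mature strand.

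The plants were the inbred cucumber line 9930, grown in artificial climate chambers, and dissected shoot tips were taken at the stage of 4 true leaves. Plants under high temperature had 28 °C in the light and 25 °C in the dark, with 16 h of light and 8 h of dark (HL) or 8 h of light and 16 h of dark (HS). Plants under low temperature had 20 °C in the light and 15 °C in the dark, with the same long (LL) or short (LS) photoperiod. Each of the 4 treatments had 3 small RNA libraries and 3 mRNA libraries made from the same pools of many apices, and 1 further library of cleaved mRNA ends (a degradome) pooled all treatments. The small RNA tables held between 609415 and 1551482 miRNA counts per library. The day length and temperature of a treatment were each a chamber setting, so chamber and treatment cannot be told apart. The gene identifiers could not be paired with names in the sources used here, so marker genes of the shoot tip were not analysed.

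The sequence behind the miR166 row was a 21-base 3′-arm strand, and no other miRNA in the table had its seed (bases 2 to 8 from the 5′ end, in capitals below). The shifted form is the strand of the same arm at other miR166 loci. It begins 2 bases further 5′ and so has another seed, which no miRNA in the table carried. Its overlap with miR166 is 19 bases. Seeds are used here to compare sequences and not to infer shared targets. The 6-base match, a table entry of no known family, is shown because it shared the first 6 bases with miR166 and had the pattern most like it in counts scaled to clean reads, and miR157 and miR167 because they were the next most abundant miRNAs.
csa-miR166: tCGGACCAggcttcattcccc
shifted form: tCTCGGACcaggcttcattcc
6-base match: tCGGACATcggcgacttggaa
csa-miR157: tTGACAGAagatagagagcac
csa-miR167: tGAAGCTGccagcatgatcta
A separate table entry of no known family has a similar name, but shared only its first base with miR166.

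The hairpin sequences supplied for the family came from 8 loci on 4 chromosomes, in coordinates of the Chinese Long 9930 genome that the study labels v20. The gene annotation of that build was not used here. The stretch around the 3′-arm strand of each is shown to set the loci against each other, with the strand named for that locus in capitals.
csa-miR166a: gaTCTCGGACCAGGCTTCATTCtcgccag
csa-miR166b: gaTCTCGGACCAGGCTTCATTCCtcacac
csa-miR166c: gtcgTCGGACCAGGCTTCATTCCCCccaa
csa-miR166d: gatcTCGGACCAGGCTTCATTCCCCccaa
csa-miR166e: gtcgTCGGACCAGGCTTCATTCCCCccac
csa-miR166f: gattTCGGACCAGGCTTCATTCCCCtcaa
csa-miR166g: aaTCTCGGACCAGGCTTCATTCCcgtcaa
csa-miR166h: gtcgTCGGACCAGGCTTCATTCCCCccaa
Loci c (chr3:6590401-6590525, minus strand), d (chr3:9416433-9416557, plus), e (chr5:4265335-4265525, plus), f (chr6:18652826-18652972, plus) and h (chr6:7030186-7030313, plus) hold the counted strand in full. Loci a (chr2:10289970-10290075, plus), b (chr2:22471793-22472066, minus) and g (chr6:19158791-19158945, plus) do not. With positions counted from 1 at the 5′ end of the counted strand, locus a differs by C19T and C21G, locus b by C20T and locus g by C21G. The shifted form occurs in the hairpins of b, d and g. The table gives 1 sequence and 1 count for the family, so counts of single loci were not analysed here.

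The hairpins of loci d and g are given whole because they carry the 2 start positions, with the 5′-arm and 3′-arm strands in capitals.
csa-miR166d: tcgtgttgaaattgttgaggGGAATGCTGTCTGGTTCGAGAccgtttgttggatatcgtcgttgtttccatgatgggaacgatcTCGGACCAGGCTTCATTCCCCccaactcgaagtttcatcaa
csa-miR166g: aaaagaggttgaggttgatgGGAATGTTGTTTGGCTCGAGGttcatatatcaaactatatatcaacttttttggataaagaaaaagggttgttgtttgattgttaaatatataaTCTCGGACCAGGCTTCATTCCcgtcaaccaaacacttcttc
Folded with RNAfold, the 8 hairpins, 106 to 274 bases long, had minimum free energies between -62.8 and -45.0 kcal per mol, and 18 or 19 bases of each 3′-arm strand were paired. A 5′-arm strand was named for 6 of the 8 loci, in 4 different sequences.

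miR166 ranked first in all 12 libraries. Over the series it took 3825810 of 11238643 miRNA counts, or 34.0%. Among HL tips it had 200167, 274403 and 409815 counts in replicates 1, 2 and 3, which were 32.8%, 40.0% and 43.0% of the miRNA counts. In HS tips the counts were 316108, 247978 and 485949, or 31.1%, 28.6% and 34.1%. The HL shares reached the highest value of the series and overlapped those of HS. LL tips gave 275926, 228631 and 342376 counts, or 28.6%, 35.2% and 38.3%. LS tips gave 437338, 259398 and 347721 counts, or 28.2%, 38.2% and 36.9%. The 2 low-temperature treatments covered nearly the same range, and each had replicate 1 as its lowest share. The widest Wilson 95% interval of a share was 0.236 percentage points, which covers counting error only. Replicates of a treatment, which are separate pools, lay up to 10.2 points apart.

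The margin over the next miRNA varied. The second rank went to miR167 in 7 libraries, including all those of HL and LL, and to miR157 in 5, including all those of HS. miR167 represses auxin response factors in Arabidopsis, and miR157 is a relative of miR156, which represses SQUAMOSA promoter-binding factors and delays the change from juvenile to adult growth. The count of miR166 was 2.77 times that of the next miRNA in HL replicate 2, but 1.04 times in HS replicate 2, where miR157 nearly drew level.

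**Figure D1:**
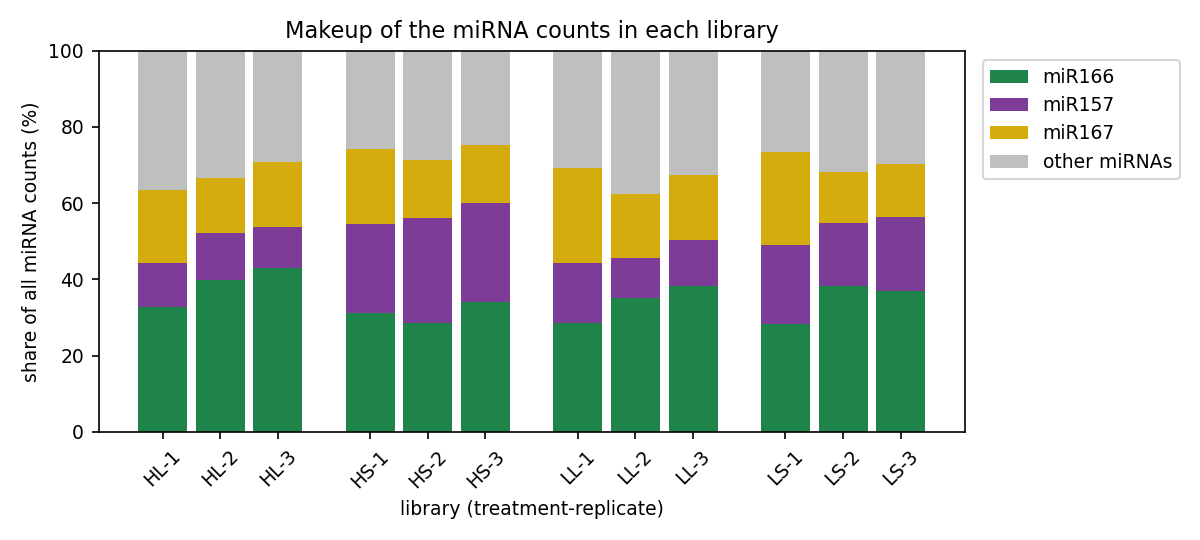
Share of all miRNA counts (%) taken by miR166, miR157, miR167 and all other miRNAs in each of the 12 libraries (treatment and replicate). miR166 took from 28.2% in LS replicate 1 to 43.0% in HL replicate 3, more than miR157 or miR167 in every library, and the miR157 part was larger in all HS and LS libraries than in any HL or LL library.

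Scaled to 1000000 clean reads of a library (CPM), miR166 stood at 11837, 16438 and 24197 in HL tips. HS tips had 17950, 14242 and 28743 CPM. The highest library of each of these treatments was thus about double its lowest, at 2.04 and 2.02 times. LL tips had 16358, 12947 and 20582 CPM, and LS tips 25282, 15310 and 20652 CPM. All 4 treatments overlapped in CPM. Replicate 3 was the highest in HL, HS and LL, and replicate 2 the lowest in HS, LL and LS.

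**Figure D2:**
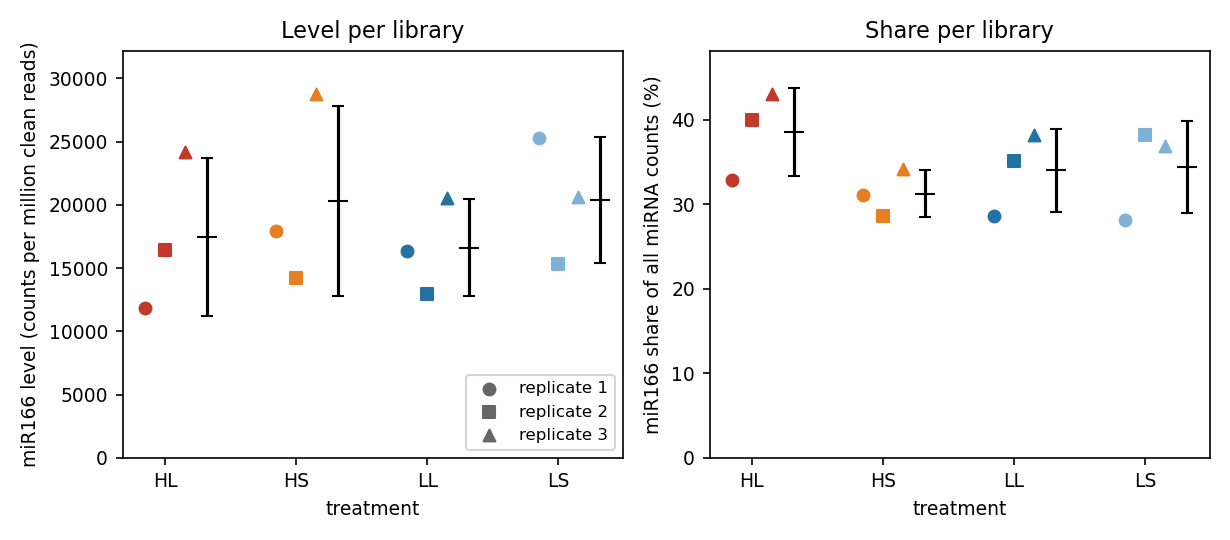
miR166 level in CPM (counts scaled to 1000000 clean reads, left) and share of all miRNA counts in percent (right) in each library, by treatment, with replicates 1 to 3 as circle, square and triangle; black marks are the mean and SD of 3 libraries. The treatments overlapped on both scales, and replicate 3 was the highest in CPM in HL, HS and LL.

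The spread of miR166 was compared with that of the 29 miRNAs with at least 1000 counts in every library. In CPM its coefficient of variation between replicates was 35.7% among HL tips, 37.1% among HS tips, 23.0% among LL tips and 24.4% among LS tips. The HL and HS values both ranked 2 from the most variable, LL ranked 14 and LS 16, beside medians of 15.8% (HL), 22.9% (HS), 21.7% (LL) and 28.2% (LS) over the 29. As a share of miRNA counts the same libraries gave coefficients of 13.5%, 8.91%, 14.5% and 15.8%, ranks 23, 26, 27 and 23. miR166 was therefore among the most variable abundant miRNAs at high temperature when scaled to clean reads, and ranked lower when scaled to the miRNA total. Because miR166 itself makes up much of that total, its share varies less by construction, and the ranks by share are no comparison with the scarcer miRNAs.

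The miRNA total itself moved between libraries. The other miRNAs together had 24202 to 32034 CPM in HL tips, 35595 to 55452 CPM in HS tips, 23848 to 40811 CPM in LL tips and 24738 to 64408 CPM in LS tips. Across the 12 libraries log2 CPM of miR166 followed that of the other miRNAs (Pearson's r = 0.75, permutation p = 0.0048; Spearman's rho = 0.65, permutation p = 0.026). Without HS replicate 3 and LS replicate 1, the 2 libraries farthest from the miR166 median, r was 0.51. With treatment means taken out it was 0.77. Both values share the clean-read total of a library. The permutations shuffled all 12 libraries without regard to treatment or replicate number, so the p values may be too small.

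Mean shares were compared first. High temperature gave a mean of 34.9% (28.6% to 43.0%, n = 6) and low temperature 34.2% (28.2% to 38.3%, n = 6). The difference of 0.71 points had an exact permutation p of 0.81, two-sided, with splits made within each photoperiod and a smallest possible p of 0.005. Long photoperiod gave 36.3% (28.6% to 43.0%) and short photoperiod 32.8% (28.2% to 38.2%), a difference of 3.48 points (exact permutation p = 0.245), which lay between 1.92 and 4.92 points with single libraries left out. Of the 6 comparisons of 2 treatments, HL against HS differed most, at 38.6 ± 5.23% and 31.3 ± 2.79% (SD, n = 3 each), with an exact permutation p of 0.2 where the smallest possible is 0.1. The other 5 gave exact permutation p values of 0.4 to 1.0 (n = 3 each).

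A share depends on the other miRNAs in the denominator. miR157 made up 12.1% of miRNA counts under long photoperiod (10.5% to 15.6%, n = 6) and 22.3% under short photoperiod (16.5% to 27.6%, n = 6), and the groups did not overlap. This difference of -10.2 points had an exact permutation p of 0.005, the smallest possible, and an adjusted p of 0.03 over the 6 tests of miR166, miR157 and miR167 against temperature and photoperiod. With miR167 and miR157 left out of the denominator, miR166 averaged 52.0% under long photoperiod and 54.0% under short photoperiod, so that the sign of its photoperiod difference turned (-2.0 points, exact permutation p = 0.395). In CPM, the log2 change of miR157 for long against short photoperiod was -1.30 (SE 0.32). By edgeR's quasi-likelihood test its unadjusted p was 0.0012 and its adjusted p 0.10. It was not called, as the unadjusted p narrowly missed the limit of 0.001.

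The levels were then tested with edgeR's quasi-likelihood test on all 248 miRNAs that passed the filter, with clean reads as library size; miRNAs counted as called had to exceed 2-fold with p below 0.001 before adjustment. miR166 was called in none of the comparisons. Its log2 change was 0.03 (SE 0.31, 95% interval -0.63 to 0.69, adjusted p = 0.95) for high against low temperature, where 7.26% of miRNAs were called. For long against short photoperiod it was -0.26 (SE 0.31, interval -0.92 to 0.41, adjusted p = 0.82), where 0.806% were called. These intervals run from 0.65-fold to 1.62-fold for temperature and from 0.53-fold to 1.32-fold for photoperiod, so a 2-fold change lies outside each.

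Within one photoperiod, the log2 change was -0.0073 for HS against LS and 0.07 for HL against LL, and the same share of miRNAs, 4.03%, was called in both comparisons. Within one temperature it was -0.22 for HL against HS, where 0.806% of miRNAs were called, and -0.30 for LL against LS, where 0% were called (0 of 248 by edgeR and 0 by DESeq2, with 13 at an unadjusted p under 0.05 by edgeR and 8 by DESeq2). HS against LL gave 0.29 with 2.42% of miRNAs called, and HL against LS -0.22 with 6.85% called. Each of these 6 changes had an SE of 0.43, and the edgeR adjusted p values lay between 0.82 and 1.00. With clean reads, the interval of HS against LS, 0.52-fold to 1.90-fold, left out a 2-fold change in either direction. With TMM scaling it was 0.66-fold to 2.05-fold and held a 2-fold increase. On clean reads, the intervals of HL against HS (0.45-fold to 1.65-fold), LL against LS (0.43-fold to 1.56-fold) and HL against LS (0.45-fold to 1.64-fold) still held a 2-fold decrease. Those of HS against LL (0.64-fold to 2.34-fold) and HL against LL (0.55-fold to 2.01-fold) held a 2-fold increase. The temperature effect under long photoperiod exceeded that under short photoperiod by 0.08 (SE 0.61, adjusted p = 0.98), a difference of the effects that was smaller than its error.

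With clean reads as library size, the temperature change of miR166 was larger in size than that of only 9 of the 248 miRNAs. Its HS against LS change was larger than that of 1. Its photoperiod change was larger than that of 149 of 248, at 0.26 against a median size of 0.20. These ranks take no account of the error of each change. With TMM scaling the temperature change of miR166 was 0.20, and with DESeq2 size factors 0.17. The direction of several changes turned with the library size. With all miRNA counts as library size, HL against HS became 0.30 (adjusted p = 0.40) and the photoperiod change 0.14. With the counts of the other miRNAs it was 0.48 for HL against HS (SE 0.21, unadjusted p = 0.036, edgeR adjusted p = 0.23). No direction is therefore given for miR166 under photoperiod.

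**Figure D3:**
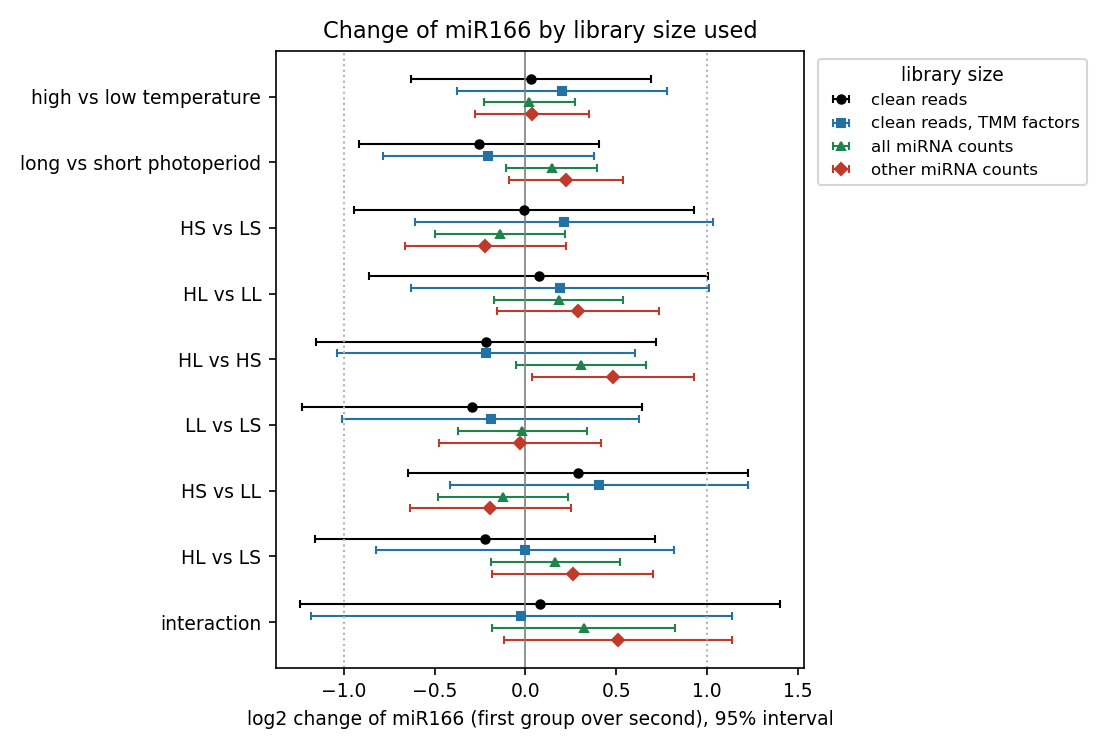
log2 change of miR166 (first group over second) with its 95% interval for each comparison and the interaction, by the library size used in edgeR. Dotted lines mark 2-fold. The TMM factors were applied to all miRNA counts, although the legend names clean reads. Scaled to clean reads the temperature change was 0.03 and the photoperiod change -0.26; the photoperiod change lay at 0.14 with all miRNA counts and at 0.23 with the other miRNA counts, and no change was called.

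The 5 abundant miRNAs most like miR166 over the 12 libraries, by Pearson's r of log2(CPM + 1), are given as a description, since all are scaled to the same clean reads. The 6-base match, whose sequence stands above, came first with r = 0.85. It was followed by miR168 (0.83), which represses ARGONAUTE1 in Arabidopsis, miR4414 (0.75), miR156 (0.73) and a second entry of no known family, cCTGTGTTctgtttgtcgttgg (0.69). Over the other 28 abundant miRNAs the median r was 0.45, with 19 of them positive. With treatment means taken out, the 6-base match still ranked first (r = 0.92) and miR168 reached 0.87. Scaled to the miRNA total of each library, the likeness of the 6-base match (0.63) and of miR168 (0.70) was lower, and that of miR156 was negative (-0.62). On that scale the 6-base match ranked 5, and miR7129 came first (0.73). The 6-base match was far scarcer than miR166, at 289 ± 103 CPM in HL tips, 409 ± 96.9 CPM in HS tips, 322 ± 44.5 CPM in LL tips and 334 ± 65.7 CPM in LS tips (SD, n = 3 each).

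For the mRNA side, both target predictions supplied with the study shared 9 gene identifiers for miR166, and 8 of them had FPKM values (fragments per kilobase of transcript, scaled to the mapped fragments of a library); the ninth, Csa6M396640.1, was not analysed here. The identifiers could not be paired with names in the sources used here, so membership of the class III homeodomain-leucine zipper family is not stated. The predictions at hand give no score for Csa1M569450.1, Csa3M776860.1 and Csa4M046770.1. Csa6M525430.1 had the highest level, with 132 to 180 FPKM over the 12 libraries. Csa6M141360.1 followed with 73.2 to 88.6 FPKM, below every value of Csa6M525430.1. The ranges of Csa7M452940.1 (45.3 to 83.5 FPKM), Csa1M538230.1 (46.1 to 63.6) and Csa3M895630.1 (37.9 to 49.7) overlapped, so no order is given among them. Csa3M776860.1 lay below these at 13.4 to 31.1 FPKM. Csa1M569450.1 and Csa4M046770.1 lay near the filter of 1 FPKM, between 0.53 and 1.75 FPKM. In mean level, 5 of the 8 predicted targets stood at percentile 76.6 or higher among the 21221 genes in the table.

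No predicted target was called between treatments by limma with a ratio of mean FPKM over 2 and an adjusted p under 0.05, over 18655 genes tested. The count was 0 of 8 for high against low temperature (3.95% of all genes called), HS against LS (4.3%), HL against LL (2.12%) and HS against LL (2.91%). It was also 0 of 8 for HL against LS (4.14%), HL against HS (0.541%), LL against LS (0.0322%) and long against short photoperiod (0.311%). At an unadjusted p under 0.05, limma gave between 0 and 3 of 8 in these comparisons. The changes below passed the adjusted p without reaching 2-fold; this rule was added after the values were seen.

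Under that rule 3 of 8 targets differed between high and low temperature, 2 higher and 1 lower, where 24.1% of all genes passed. Csa7M452940.1 had 67.4, 59.9 and 58.7 FPKM in HL tips and 83.5, 75.7 and 72.8 FPKM in HS tips. It had 53.6, 52.7 and 48.3 FPKM in LL tips and 55.6, 56.1 and 45.3 FPKM in LS tips. Every high-temperature library exceeded every low-temperature library, and HS was above HL. Its log2 change was 0.41 for high against low temperature (SE 0.07, limma adjusted p = 0.0014), an average over both photoperiods. It was 0.56 for HS against LS (SE 0.10, limma adjusted p = 0.0029) and 0.58 for HS against LL (SE 0.10, adjusted p = 0.0039). The change did not pass for HL against LL (0.26, limma adjusted p = 0.16), HL against LS (0.24, adjusted p = 0.13) or HL against HS (-0.31, adjusted p = 0.17).

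Csa3M776860.1 moved the other way. It had 25.6, 22.6 and 20.7 FPKM in HL tips and 13.9, 16.1 and 13.4 FPKM in HS tips. The low-temperature values were 26.9, 24.0 and 19.9 FPKM in LL and 25.0, 31.1 and 27.4 FPKM in LS. The 3 HS libraries lay below all 9 others, while HL and LL overlapped. The log2 change was -0.47 for high against low temperature (SE 0.10, limma adjusted p = 0.0043), an average over both photoperiods. It was -0.90 for HS against LS (SE 0.14, limma adjusted p = 0.0011) but -0.03 for HL against LL (SE 0.14, adjusted p = 0.92). HS against LL gave -0.66 (limma adjusted p = 0.0089). HL exceeded HS by 0.63 (adjusted p = 0.047), a value that no longer passed when any library but LL replicate 3 was left out (limma adjusted p 0.051 to 0.17). The temperature change under long photoperiod minus that under short photoperiod was 0.87 on the log2 scale, which did not pass (limma adjusted p = 0.21). Its ratio of means in HS against LS, 0.52, passed 2-fold without HS replicate 2, without LS replicate 1 or with the libraries scaled to equal medians.

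Csa1M538230.1 had 60.8, 55.9 and 58.2 FPKM in HL tips and 58.8, 63.6 and 60.4 FPKM in HS tips. It had 55.8, 52.6 and 55.1 FPKM in LL tips and 49.4, 50.9 and 46.1 FPKM in LS tips. The high-temperature libraries again exceeded all those at low temperature, by a small margin. Under long photoperiod alone, HL against LL, the log2 change was 0.096 and did not pass (limma adjusted p = 0.52). The log2 change was 0.21 for high against low temperature (SE 0.05, limma adjusted p = 0.013), 0.31 for HS against LS (adjusted p = 0.012) and 0.25 for HL against LS (adjusted p = 0.042). With the libraries scaled to equal medians these became 0.14, 0.22 and 0.22, with adjusted p values of 0.083, 0.070 and 0.090, and no longer passed. The HL against LS value also no longer passed when any library but HS replicate 1 was left out (limma adjusted p 0.053 to 0.13).

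By the same rule 3 of 8 targets passed for HS against LS (17.7% of all genes), 2 of 8 for HS against LL (12.6%), 1 of 8 for HL against LS (12.8%) and 1 of 8 for HL against HS (1.11%). None of the 8 passed for HL against LL (5.24% of all genes), LL against LS (0.0375%) or long against short photoperiod (1.09%). At an unadjusted p under 0.05 limma gave 1, 0 and 2 of 8 in these 3 comparisons. The median log2 change of the 8 for high against low temperature was -0.03, beside 0.02 over all genes tested. The most abundant target, Csa6M525430.1, changed by -0.02 with temperature (SE 0.07, limma adjusted p = 0.89) and by 0.11 with photoperiod (SE 0.07, adjusted p = 0.57). Csa3M895630.1 had 41.4, 41.4 and 37.9 FPKM in HL tips and 46.0, 49.7 and 45.4 FPKM in HS tips. It had 40.9, 42.1 and 43.7 FPKM in LL tips and 45.9, 49.6 and 47.2 FPKM in LS tips. Long photoperiod was thus lower than short in every library of both temperatures, by -0.19 on the log2 scale. The change did not pass over all genes (limma adjusted p = 0.14). How many of all genes separated as fully was not counted, here or for Csa7M452940.1 and Csa1M538230.1 with temperature.

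**Figure D4:**
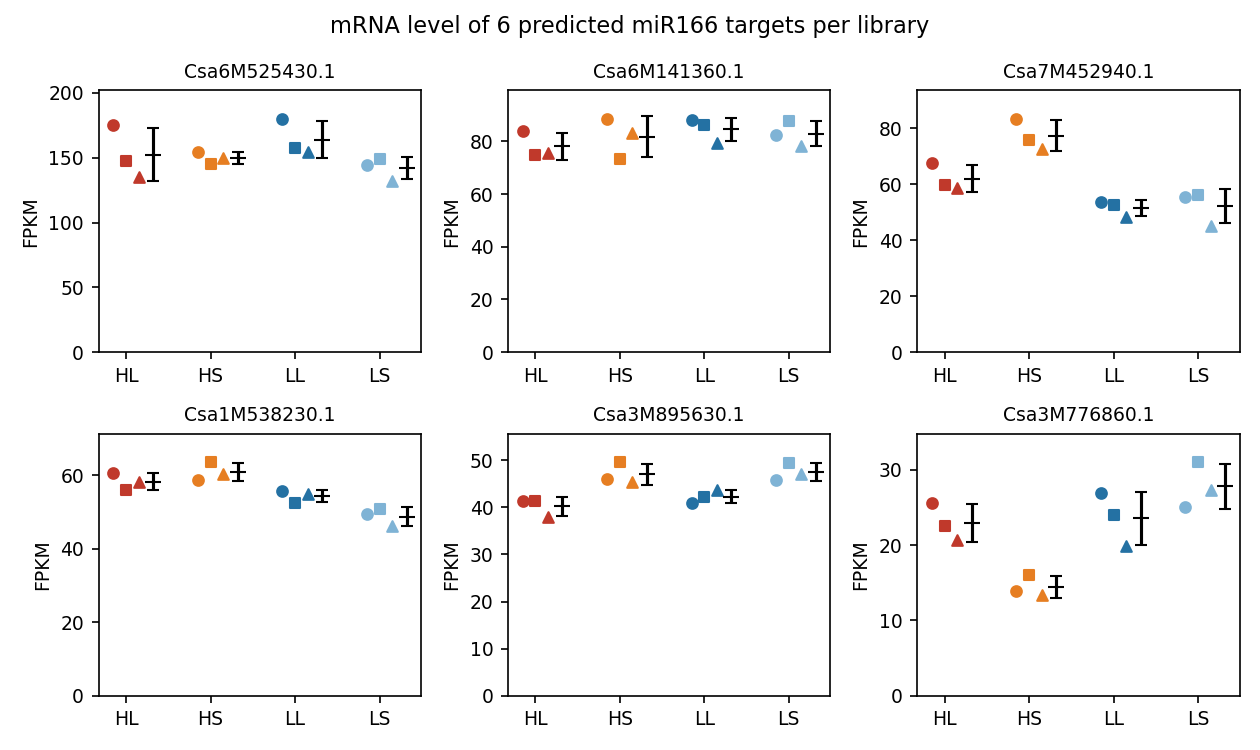
mRNA level in FPKM of the 6 predicted miR166 targets with a mean over 10 FPKM, in each library by treatment, with replicates 1 to 3 as circle, square and triangle and black marks for the mean and SD of 3 libraries. Csa7M452940.1 and Csa1M538230.1 were higher in all HL and HS libraries than in any LL or LS library, and Csa3M776860.1 was lowest in the 3 HS libraries.

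miR166 and its predicted targets were measured in the same 12 samples, and their levels were compared across them. Pearson's r between log2(CPM + 1) of miR166 and log2(FPKM + 1) of the 8 targets ran between -0.53 and 0.01, and 7 of 8 were below 0. None passed after adjustment over the 8 (smallest adjusted permutation p 0.59 for r and 0.65 for Spearman's rho). The share of all genes with an r below 0 was not computed, so the 7 of 8 is not read as a trait of the targets. Csa6M525430.1 had the lowest r, at -0.53 (permutation p = 0.074, rho = -0.53), and -0.61 without HS replicate 3 and LS replicate 1. Within treatments the order of replicates was compared as well. For Csa3M776860.1, the library with the most miR166 had the least target mRNA in all 4 treatments. Its r over deviations from the treatment means was -0.81, with an exact permutation p of 0.0085 over the 1296 arrangements of replicates within treatments and an adjusted p of 0.068 over the 8 targets, so it did not pass. These arrangements take the treatments as independent, although replicate 3 was the highest in miR166 in 3 of the 4, and the p may be too small. Scaled to the miRNA total of each library, that r was -0.43 (exact permutation p = 0.26).

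**Figure D5:**
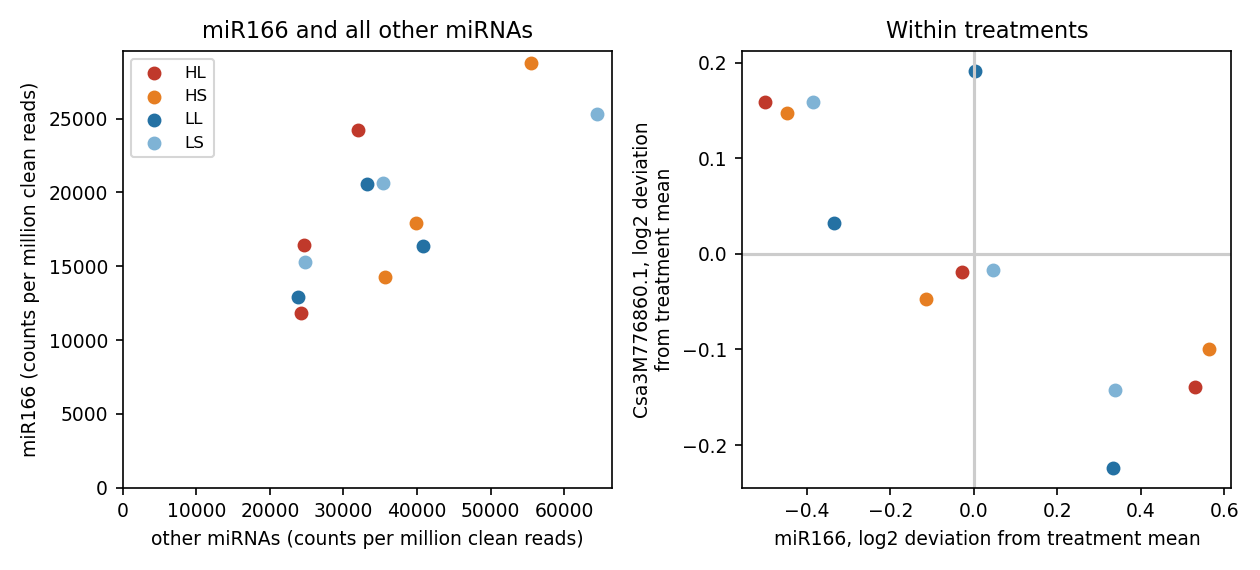
Left, miR166 against the summed other miRNAs, both in CPM (counts scaled to 1000000 clean reads), in the 12 libraries by treatment; right, log2 deviation of Csa3M776860.1 against that of miR166 from their treatment means in the same samples. The libraries with more miR166 had more of the other miRNAs (r = 0.75 on the log2 scale), and the deviations on the right had r = -0.81, which did not pass (adjusted p = 0.068 by exact permutation).

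Cleavage by a plant miRNA falls opposite its bases 10 and 11, so a cleaved target would give a degradome tag that starts with the complement of miR166 bases 10 to 1. None of the 5359 tags, with 263397 copies in all, began there, with up to 1 mismatch allowed, and none began 1 to 5 bases upstream. A count of 0 allows up to 11.4 copies per 1000000. All 5359 tags were of one class, matched to other RNA records, so the table at hand bears on such RNAs and not on mRNA cleavage.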

How the data were processed

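Small RNA values were whole-number counts deposited by the authors with no normalization, as 1 row per miRNA and 1 for the whole miR166 family. Each was summed over tags that differ from the listed sequence by at most 3 bases, at the ends only, so related forms may be counted together. The mRNA values were FPKM computed by the authors from reads aligned to cucumber reference genes. The degradome table held deposited tag counts. Bowtie and RSEM are named in the submitters' processing notes; versions are not given in the sources used here. Clean reads per library, from the study, served as library sizes. miRNAs with at least 10 summed counts were tested with edgeR 4.0.16 and genes with FPKM of at least 1 in 3 libraries with limma 3.58.1 (trend) on log2(FPKM + 1), each in one model of 4 treatments with Benjamini-Hochberg adjustment; a log2 change with this pseudocount understates the change of low genes. Permutation tests were written directly in Python 3.11.15 (100000 resamples for correlations over 12 libraries), with ranks and Wilson intervals from SciPy 1.17.1. Folding used RNAfold 2.7.2. Sequences came from the count table and the study's hairpin list. Named miRNAs were miR166, the 2 next by summed counts and the 5 most alike; named mRNAs were all shared target predictions. These and the tests were chosen with earlier results of these data known. Alternatives covered scaling, filters, DESeq2 1.42.0, pseudocount, replicate block and leaving out each library. Fits were tested on simulated data. Replicates were pools of apices, so p-values measure the spread between pools. Replicate numbers recur across treatments. Same-numbered small RNA libraries deviated together (every r over 0.1) in HL and HS (0.15 to 0.37), HS and LS (0.15 to 0.41) and LL and LS (0.47 to 0.76). The rule was not met in the other 3 comparisons, although r reached 0.31 in HS and LL. Differently numbered libraries were not compared, so pairing was not tested.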

Additional observations from a re-analysis of the deposited data

How the results depend on the processing

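No alternative gave a call for miR166. Its log2 change turned for HS against LS with TMM scaling (0.21) and DESeq2 size factors (0.20), and the interaction became -0.023 and -0.067. TMM moved the median change of all miRNAs by up to 0.21. With all miRNA counts as library size the change was 0.30 for HL against HS, -0.12 for HS against LL, 0.17 for HL against LS and 0.14 for photoperiod; with the other miRNA counts these were 0.48, -0.19, 0.26 and 0.23. With clean reads as denominator the photoperiod difference in share was -0.33 points, and without miR167 and miR157 it was -2.0 points. The cause of these turns was not tested. Of all miRNAs, edgeR called 6 and DESeq2 10 in HS against LL. Leaving out single libraries gave -0.34 to 0.19 for HS against LS, -0.23 to 0.29 for HL against LL, -0.52 to 0.12 for HL against HS, -0.047 to 0.49 for HS against LL, -0.14 to 0.14 for temperature, -0.23 to 0.42 for the interaction and, with no turn, -0.48 to -0.11 for LL against LS, -0.53 to -0.0069 for HL against LS and -0.41 to -0.088 for photoperiod. The temperature difference in share ran between -0.85 and 2.15 points, below 0 without HL replicate 3, HS replicate 3, LL replicate 1 or LS replicate 1.

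For the targets in HS against LS, 1 (Csa3M776860.1) passed 2-fold with FPKM scaled to equal medians, without HS replicate 2 and without LS replicate 1, a range of 0 to 1. At the adjusted p alone, HL against HS had 0 with a pseudocount of 0.1, with no filter and with the replicate block, and HL against LS had 0 with the block; leaving out libraries gave 0 to 1 in both. The r with miR166 turned for Csa3M776860.1 (0.17) and Csa4M046770.1 (-0.10) scaled to the miRNA total, and for Csa3M895630.1 (0.053) with scaled FPKM; leaving out libraries gave -0.15 to 0.24 for Csa3M895630.1, -0.14 to 0.24 for Csa4M046770.1 and -0.33 to 0.023 for Csa7M452940.1. Over deviations from treatment means, the r of Csa3M895630.1 was 0.043 scaled to the miRNA total, and leaving out libraries gave -0.016 to 0.64 for Csa4M046770.1, -0.75 to 0.0073 for Csa6M141360.1 and -0.94 to -0.76 for Csa3M776860.1, which passed (adjusted p = 0.037, exact permutation) without LL replicate 1 or LL replicate 2.

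With the replicate block, the miR166 change was -0.19 for HL against HS, -0.064 for HS against LS, -0.32 for LL against LS, 0.0029 for temperature and -0.26 for photoperiod, with no call, and the share differences kept their values (exact permutation p = 0.81 and 0.22). Of the mRNA libraries, 1 of 18 same-numbered pairs deviated together (r over 0.1). The block changed no other call. Only 3 replicates a treatment limit all tests.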
